A study of Mus musculus with 3 samples.

Results

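The genes described here encode 4 chromodomain helicases (Chd3, Chd4, Chd7 and Chd8) and 5 subunits of the SWI/SNF complexes (Smarca2, Smarca4, Arid1a, Arid1b and Arid2). They were selected by gene symbol and make up 9 of the 31053 genes listed in each library, and every one of the 9 had UMIs in all 3 libraries. Single-cell RNA was counted in 3 cultures of mouse cortical cells with 10x Genomics droplet libraries made from methanol-fixed cells. A UMI is a molecular barcode that marks 1 captured transcript. The selection was made with levels of these libraries known, so the differences below are a description and carry no test.

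Chromatin remodellers use ATP to slide, eject or exchange nucleosomes, and so set which promoters and enhancers are open. Chd3 and Chd4 are alternative motors of NuRD, a complex that joins remodelling to histone deacetylation. SWI/SNF complexes, also called BAF and PBAF, are built around one motor, Smarca4 (Brg1) or Smarca2 (Brm), and take different subunits in neural progenitors and in neurons. Chd7 and Chd8 act at enhancers and promoters, and in humans mutations of CHD7 cause CHARGE syndrome while mutations of CHD8 are linked to autism.

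All cultures were from C57BL/6 mice with no genetic change named in the labels. MIM-treated astrocytes were astrocytes moved to MIM, a serum-free medium holding FGF2 (20 ng/mL), B27, N2 and some or all of the metabolites putrescine, S-adenosylmethionine, cysteine, glycine, threonine and methionine, and harvested by day 5 at the latest. Astrocytes grew in DMEM-F12 with B27 and 10% serum. Neural stem cells grew as neurospheres in Neurobasal medium with B27, EGF and FGF2 (20 ng/mL each). The labels give embryonic day 14.5 for all 3 samples, while the protocol allows a postnatal, GLAST-sorted source of astrocytes or differentiation from neurospheres, and does not say which was used. The MIM recipe and day of this library are not given either. Serum, FGF2, base medium and metabolites differed together between treated and untreated astrocytes and cannot be told apart. Each group was 1 library, and the labels name no replicate cultures, so no difference has a replicate check, and intervals in parentheses are exact 95% intervals for counting error only.

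The promoters of 6 of the 9 genes were found in the RefSeq table, in 8 start sites. The 3 shown here are those whose RefSeq start is also the start of the GENCODE gene and that hold no exon, and they include genes that were lower in both astrocyte libraries (Chd4, Arid1a) and one that was under the size used for a call (Smarca4). Each is the 250 bases upstream of the start on GRCm38 (RefSeq table of GRCm38.p6), read 5′ to 3′ in the direction of the gene, with capitals marking the GC box GGGCGG or its reverse complement CCGCCC, the letters bound by Sp1. Chd4 was read from chr6:125095731-125095980 (plus strand), Smarca4 from chr9:21615919-21616168 (plus strand) and Arid1a from chr4:133756770-133757019 (minus strand).
Chd4: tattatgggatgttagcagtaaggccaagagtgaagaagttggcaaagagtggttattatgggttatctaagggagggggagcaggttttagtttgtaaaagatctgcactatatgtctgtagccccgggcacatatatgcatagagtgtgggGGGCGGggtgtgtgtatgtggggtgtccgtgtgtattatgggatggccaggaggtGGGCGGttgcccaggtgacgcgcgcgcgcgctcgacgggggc
Smarca4: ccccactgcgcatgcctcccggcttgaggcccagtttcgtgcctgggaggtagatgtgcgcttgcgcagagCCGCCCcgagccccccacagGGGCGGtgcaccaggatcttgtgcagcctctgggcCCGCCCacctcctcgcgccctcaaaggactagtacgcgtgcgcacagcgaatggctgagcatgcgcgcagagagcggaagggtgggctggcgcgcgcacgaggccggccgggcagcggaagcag
Arid1a: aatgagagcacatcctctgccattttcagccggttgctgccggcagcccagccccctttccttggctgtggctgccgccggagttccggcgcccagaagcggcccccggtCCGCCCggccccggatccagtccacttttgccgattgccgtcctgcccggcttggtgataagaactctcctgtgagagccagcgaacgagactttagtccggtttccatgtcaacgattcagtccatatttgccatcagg
The windows held 2, 3 and 1 GC boxes in the order shown, with GC contents of 54.0%, 70.8% and 61.2%. A GC box on either strand was present in 8 of the 8 windows of the 6 genes and in 32.7% of the 32851 windows of the table. The ratio of observed to expected CpG ran from 0.653 to 1.03 over the 8 windows, against a median of 0.374 over all windows. The windows at both ends of this range, of Chd8 and Arid1b, overlap an exon of their gene. In the 3 windows shown the ratio was 0.842, 0.798 and 0.784 in the order above. The windows were CpG-rich beside that median, in genes called lower in astrocytes and in those without a call. The 8 windows are not independent, since Chd4 and Arid1a have more than one.

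The filters left 14964 MIM-treated astrocytes with a median of 3156 UMIs per cell, 9818 astrocytes with 5089 and 9145 neural stem cells with 1379. Levels are given as counts per 1000000 UMIs of a library, summed over its kept cells (CPM). Malat1, a nuclear noncoding RNA, made up 9.44% of the UMIs of MIM-treated astrocytes, 13.7% of those of astrocytes and 26.9% of those of neural stem cells, so values were also computed with Malat1 left out of the totals. Among markers, summed astrocyte markers stood at 955, 2044 and 603 CPM and oligodendrocyte lineage markers at 622, 111 and 758 CPM in MIM-treated astrocytes, astrocytes and neural stem cells. The astrocyte markers did not move as one. Gfap stood at 4.05 CPM in MIM-treated astrocytes and 271.5 CPM in astrocytes, but S100b at 87.8 and 11.8 CPM and Slc1a3 at 363 and 206 CPM. Among progenitor markers Hes5 stood at 60.5 CPM in MIM-treated astrocytes and 1.38 CPM in astrocytes, but Sox2 at 148 and 168 CPM and Nes at 50.9 and 62.6 CPM. The oligodendrocyte lineage sum in MIM-treated astrocytes was nearly all Olig1 (547 CPM) and Olig2 (72.6 CPM), while Pdgfra, Cspg4 and Sox10 stood at 0.81, 1.77 and 0.06 CPM there and at 20.01, 12.9 and 14.2 CPM in neural stem cells. Of 5 microglial markers Ptprc, Cx3cr1 and C1qa were at 0 UMIs in every library, and the sum of all 5 was at most 0.04 CPM. There were 43 cell barcodes in both the MIM-treated and the astrocyte library, 32 in both the MIM-treated and the stem cell library and 25 in both the astrocyte and the stem cell library. Without them, no count of the 9 genes called differed.

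As a set, the 9 remodeller genes were sparse in both astrocyte libraries and denser in neural stem cells. They took 0.0251% of UMIs in MIM-treated astrocytes (12770 UMIs), 0.0207% in astrocytes (10467 UMIs) and 0.0794% in neural stem cells (11667 UMIs). A gene was called higher or lower in a comparison when CPM + 1 differed by a log2 ratio of 1 or more in size and one or both libraries had 10 CPM or more. Of the 9 genes, 7 were lower in astrocytes than in the stem cells, beside 25.1% of all genes at that level, and 7 were lower in MIM-treated astrocytes than in the stem cells, beside 22.6% of all genes. In both comparisons the 2 genes without a call were the motors Smarca2 and Smarca4. Between MIM-treated astrocytes and astrocytes only Chd7 of the 9 was called, and it was higher after MIM, as were 11.2% of all genes. Since the genes were selected with these contrasts known, nothing is read from the shares.

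**Figure D1:**
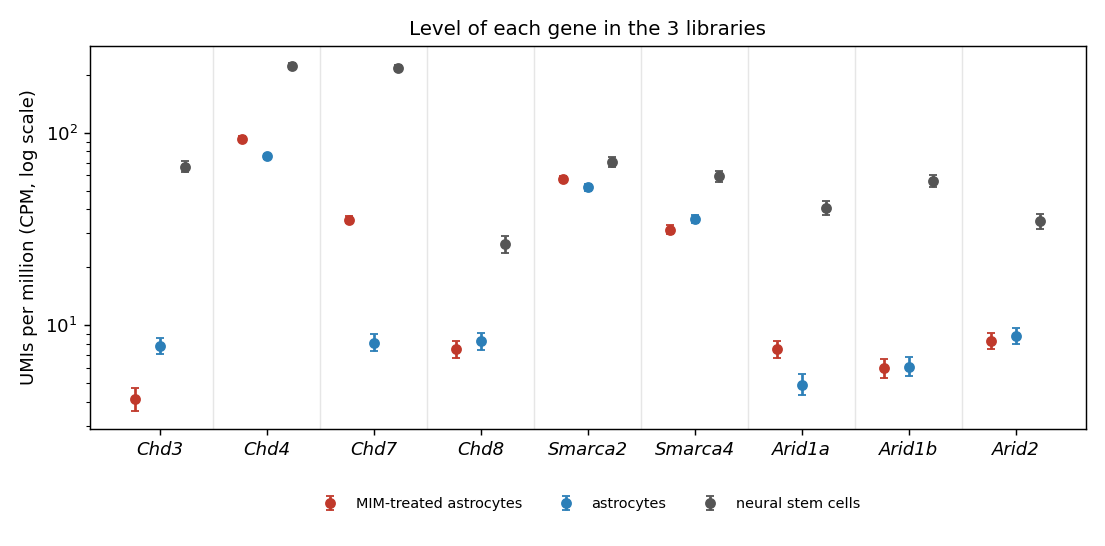
Level of each gene in CPM on a log axis in MIM-treated astrocytes, astrocytes and neural stem cells, with exact 95% counting intervals; each point is 1 library. Chd7 separates all 3 libraries, at 35.4, 8.12 and 218 CPM, while Smarca2 lies between 52.1 and 70.5 CPM in all of them.

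Chd3 encodes one of the NuRD motors and lies on mm10 chromosome 11 at 69343273 to 69369406. It was at 4.11 CPM (3.57 to 4.70) in MIM-treated astrocytes, 7.81 CPM (7.06 to 8.62) in astrocytes and 66.6 CPM (62.5 to 71.0) in neural stem cells, from 209, 395 and 979 UMIs. The 3 intervals did not overlap, and Chd3 was the one gene of the set with a lower level in MIM-treated astrocytes than in astrocytes by more than 1.5-fold. It was 1.90-fold lower (1.60 to 2.26) in MIM-treated astrocytes than in astrocytes, and 16.2-fold lower (13.97 to 18.9) in MIM-treated astrocytes than in the stem cells. Astrocytes were 8.54-fold lower (7.59 to 9.62) than neural stem cells. In cells with 1000 to 2000 UMIs, Chd3 stood at 15.3 CPM in MIM-treated astrocytes and 14.6 CPM in astrocytes, a ratio of 1.05-fold (0.48 to 2.71). With 7 UMIs of Chd3 in these astrocytes, that interval holds both no difference and the 1.90-fold difference of all cells.

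Chd4 encodes the other NuRD motor, which progenitors of the developing mouse cortex need to divide, and lies on chromosome 6 at 125095981 to 125130591. Its level was 93.4 CPM (90.8 to 96.1) in MIM-treated astrocytes, 75.3 CPM (72.95 to 77.75) in astrocytes and 222 CPM (214.5 to 229.8) in neural stem cells. MIM-treated astrocytes were 1.24-fold higher (1.19 to 1.29) than astrocytes, under the size used for a call. Astrocytes were 2.95-fold lower (2.81 to 3.09) than neural stem cells, and MIM-treated astrocytes 2.38-fold lower (2.27 to 2.49). The call against neural stem cells was lost for MIM-treated astrocytes with TMM scaling (edgeR), where the log2 ratio was −0.84 in place of −1.24. It was also lost in cells with 1000 to 2000 UMIs, where MIM-treated astrocytes were 1.79-fold lower (1.63 to 1.98).

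The balance of the NuRD motors differed between libraries when all cells were summed. Chd3 held 4.21% (3.67 to 4.81) of the UMIs of Chd3 and Chd4 together in MIM-treated astrocytes, 9.39% (8.53 to 10.3) in astrocytes and 23.1% (21.8 to 24.4) in neural stem cells. These shares do not depend on how libraries are scaled, since both genes come from the same cells, but they do depend on which cells a library holds. In cells with 1000 to 2000 UMIs the share was 10.8% (8.40 to 13.7) in MIM-treated astrocytes, 16.3% (6.81 to 30.7) in astrocytes and 24.2% (22.6 to 25.9) in neural stem cells, and the interval of astrocytes overlapped those of both others. The longest exact match between the longest transcripts of Chd3 and Chd4 was 35 bases, and it was 11 bases within the last 1000 bases of each.

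Chd7 encodes an enhancer-bound remodeller needed in neural stem cells and in oligodendrocyte precursors, and lies on chromosome 4 at 8690406 to 8867659. It was at 35.4 CPM (33.8 to 37.1; 1803 UMIs) in MIM-treated astrocytes, 8.12 CPM (7.36 to 8.95; 411 UMIs) in astrocytes and 218 CPM (210.2 to 225.4; 3198 UMIs) in neural stem cells. It was high in neural stem cells, intermediate after MIM and low in astrocytes, with no overlap of intervals. MIM-treated astrocytes were 4.36-fold higher (3.91 to 4.86) than astrocytes and 6.15-fold lower (5.80 to 6.52) than neural stem cells. Astrocytes were 26.8-fold lower (24.2 to 29.8) than neural stem cells, the widest ratio of the set, and 31.7-fold lower with Malat1 left out of the totals. Without Malat1, MIM-treated astrocytes were 4.16-fold higher than astrocytes.

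Chd8 encodes a relative of Chd7 that binds beta-catenin and CTCF, and lies on chromosome 14 at 52198151 to 52257780. Its level was 7.48 CPM (6.75 to 8.27) in MIM-treated astrocytes, 8.24 CPM (7.47 to 9.07) in astrocytes and 26.3 CPM (23.8 to 29.1) in neural stem cells. The astrocyte libraries overlapped and both lay below neural stem cells, by 3.52-fold (3.05 to 4.07) in MIM-treated astrocytes and 3.20-fold (2.78 to 3.68) in astrocytes. The first of these was 2.12-fold (1.56 to 2.94) in cells with 1000 to 2000 UMIs. Chd8 overlaps the antisense gene Gm26590, and whether the counting used strand is not given in the sources used here, so its level is uncertain. Of the UMIs of Chd7 and Chd8 together, Chd7 held 82.6% (80.9 to 84.1) in MIM-treated astrocytes, 49.6% (46.2 to 53.1) in astrocytes and 89.2% (88.1 to 90.2) in neural stem cells. At 1000 to 2000 UMIs per cell it held 90.4% (87.5 to 92.8) in MIM-treated astrocytes and 89.6% (88.2 to 90.8) in neural stem cells, while 12 UMIs of the pair in astrocytes allow 34.9% to 90.1%.

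Smarca2 and Smarca4 encode the alternative motors of SWI/SNF and were the genes of the set that differed least from neural stem cells. Smarca2, on chromosome 19 at 26605050 to 26778322, was at 57.3 CPM (55.2 to 59.4) in MIM-treated astrocytes, 52.1 CPM (50.1 to 54.1) in astrocytes and 70.5 CPM (66.2 to 74.9) in neural stem cells. Against neural stem cells it was 1.23-fold lower (1.14 to 1.32) in MIM-treated astrocytes and 1.35-fold lower (1.26 to 1.45) in astrocytes. With TMM scaling the first of these log2 ratios was 0.10 in place of −0.29, so its direction depends on the scaling.

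Smarca4, on chromosome 9 at 21616169 to 21704230, was at 31.4 CPM (29.9 to 33.0) in MIM-treated astrocytes, 35.5 CPM (33.9 to 37.2) in astrocytes and 59.4 CPM (55.55 to 63.5) in neural stem cells. It was 1.89-fold lower (1.74 to 2.06) in MIM-treated astrocytes and 1.67-fold lower (1.54 to 1.82) in astrocytes than in the stem cells, both under the size used for a call. With Malat1 left out of the totals its log2 ratio between MIM-treated astrocytes and neural stem cells was −1.21, past that size, in place of −0.90. In cells of 1000 to 2000 UMIs astrocytes and neural stem cells had a ratio of 1.06-fold (0.71 to 1.54), from 30 astrocyte UMIs. Smarca2 held 64.6% (63.2 to 66.0) of the UMIs of both motors in MIM-treated astrocytes, 59.5% (58.0 to 60.9) in astrocytes and 54.2% (52.0 to 56.5) in neural stem cells. In cells with 1000 to 2000 UMIs it held 58.9% (54.0 to 63.7), 52.4% (39.4 to 65.1) and 54.5% (51.5 to 57.5) in that order. These intervals all overlapped.

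Arid1a and Arid1b encode the large subunits that BAF complexes carry one at a time, and both are mutated in human Coffin-Siris syndrome. Arid1a, on chromosome 4 at 133679008 to 133756769, was at 7.48 CPM (6.75 to 8.27) in MIM-treated astrocytes, 4.90 CPM (4.31 to 5.55) in astrocytes and 40.7 CPM (37.5 to 44.1) in neural stem cells. MIM-treated astrocytes were 1.53-fold higher (1.30 to 1.80) than astrocytes, at a level below the 10 CPM floor in both. Against neural stem cells it was 5.44-fold lower (4.78 to 6.20) in MIM-treated astrocytes and 8.31-fold lower (7.15 to 9.67) in astrocytes. In cells with 1000 to 2000 UMIs the ratio of MIM-treated astrocytes to astrocytes was 0.83-fold (0.37 to 2.17). That interval holds both no difference and the 1.53-fold difference of all cells, so no change of order is shown. Against neural stem cells of that depth, MIM-treated astrocytes were 3.22-fold lower (2.38 to 4.44) and astrocytes 2.67-fold lower (1.28 to 6.68), with 7 UMIs in astrocytes.

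Arid1b, on chromosome 17 at 4994332 to 5347656, was at 5.99 CPM (5.34 to 6.70) in MIM-treated astrocytes, 6.09 CPM (5.43 to 6.81) in astrocytes and 56.2 CPM (52.4 to 60.1) in neural stem cells. The astrocyte libraries overlapped almost fully. Arid1b was 9.37-fold lower (8.21 to 10.7) in MIM-treated astrocytes and 9.23-fold lower (8.08 to 10.55) in astrocytes than in the stem cells. Arid1a held 55.5% (51.7 to 59.3) of the UMIs of both ARID1 genes in MIM-treated astrocytes, 44.6% (40.4 to 48.9) in astrocytes and 42.0% (39.4 to 44.6) in neural stem cells. In cells with 1000 to 2000 UMIs it held 53.8% (43.1 to 64.4), 63.6% (30.8 to 89.1) and 41.8% (38.3 to 45.3) in that order. The astrocyte share there rests on 11 UMIs of the pair. These intervals all overlapped, so no order of the libraries is shown at that depth.

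Arid2 encodes the ARID subunit of PBAF and lies on chromosome 15 at 96287518 to 96404992. Its level was 8.25 CPM (7.48 to 9.08) in MIM-treated astrocytes, 8.80 CPM (7.997 to 9.65) in astrocytes and 34.7 CPM (31.8 to 37.9) in neural stem cells. The astrocyte libraries overlapped, and neural stem cells lay above both. The difference from neural stem cells was 4.21-fold (3.69 to 4.80) for MIM-treated astrocytes and 3.95-fold (3.47 to 4.49) for astrocytes, lower in each. These were 2.33-fold (1.75 to 3.13) and 2.03-fold (1.02 to 4.75) in cells with 1000 to 2000 UMIs, and the call for astrocytes ended at a log2 ratio of −0.98 from 8 UMIs.

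The full counts were these. Between MIM-treated astrocytes and astrocytes, 1 of the 9 genes was higher and 0 were lower, while 11.2% of 6980 genes at or above the floor were higher and 19.1% lower. In that comparison 4 of the 9 reached the floor. Between astrocytes and neural stem cells, 0 were higher and 7 lower, against 24.2% and 25.1% of 7919 genes, and between MIM-treated astrocytes and neural stem cells 0 were higher and 7 lower, against 12.5% and 22.6% of 7294 genes. All 9 reached the floor in the last pair of comparisons, of which Chd3, Chd8, Arid1a, Arid1b and Arid2 did so only through neural stem cells, as did Chd7 in the comparison with astrocytes. The median log2 ratio over the 9 was −0.02 for MIM-treated astrocytes over astrocytes, −1.87 for astrocytes over neural stem cells and −1.95 for MIM-treated astrocytes over neural stem cells, beside −0.20, 0.03 and −0.16 over all genes at the floor. The astrocyte library enters the first and second comparison and the stem cell library the second and the last, so the comparisons are not independent.

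How libraries are scaled moved these backgrounds in every comparison, and a count of the 9 genes only in MIM-treated astrocytes over neural stem cells. Leaving Malat1 out gave 1 higher, 7 lower and 8 lower in the order above, with 10.2% of all genes higher and 21.1% lower in the first comparison, 18.8% higher and 31.4% lower in the second, and 6.62% higher and 33.9% lower in the last. TMM scaling gave 1 higher, 7 lower and 6 lower, with 15.4% higher and 13.7% lower, 29.1% higher and 21.3% lower, and 24.5% higher and 12.3% lower among all genes. Of all calls, 36.9%, 49.0% and 35.5% were higher with library totals, 32.6%, 37.5% and 16.4% without Malat1, and 52.9%, 57.8% and 66.5% with TMM. The median log2 ratio of all genes was −0.28, −0.27 and −0.53 without Malat1 and 0.06, 0.25 and 0.31 with TMM.

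**Figure D2:**
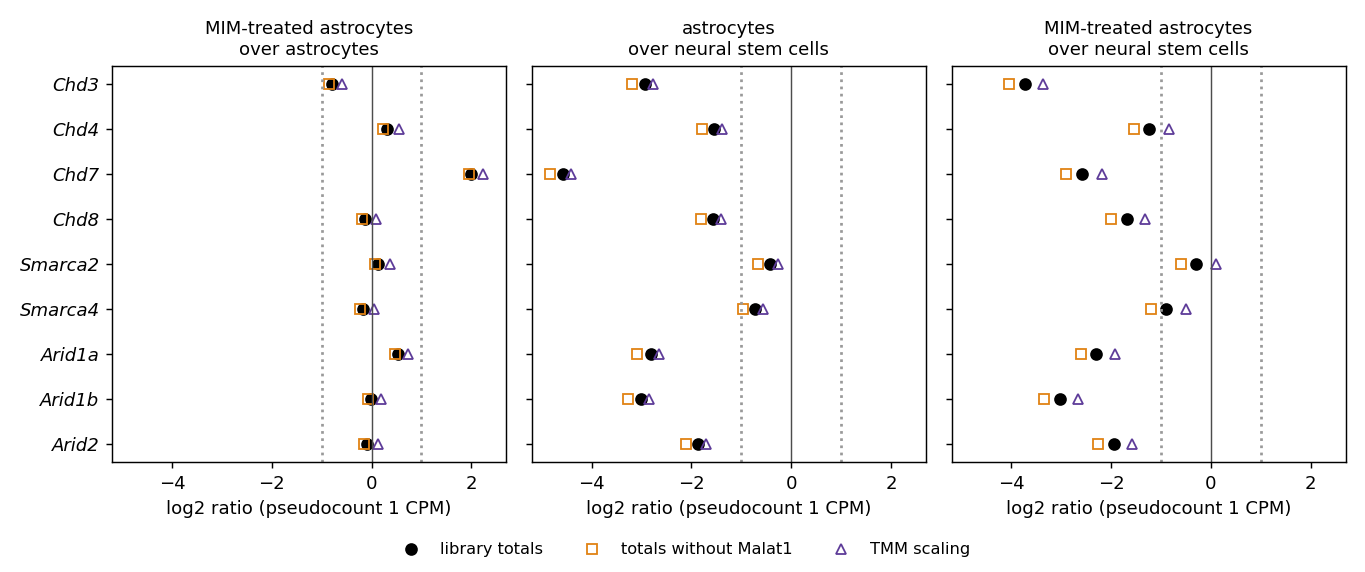
Log2 ratios (pseudocount 1 CPM) of the 9 genes in the 3 comparisons with library totals, with Malat1 left out of the totals and with TMM scaling. Against neural stem cells, 7 genes lie at −1.24 or below with library totals in both astrocyte libraries, and Smarca2 and Smarca4 lie nearer 0; between the astrocyte libraries Chd7 stands apart at 2.00.

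The 9 genes also have long transcripts, and long transcripts as a class were lower in both astrocyte libraries. The longest annotated transcripts of the set ran from 5921 bases (Smarca2) to 11325 bases (Arid1b). Among genes whose longest transcript was at least 5921 bases, 45.6% of 1276 were lower in astrocytes than in the stem cells and 8.54% higher (median log2 ratio −0.87). For MIM-treated astrocytes over neural stem cells, 50% of 1213 such genes were lower and 2.31% higher (median −0.996). For MIM-treated astrocytes over astrocytes, 15.2% of 925 were lower and 8.65% higher (median −0.13). In the fifth of genes with the shortest transcripts the medians were −0.04 for MIM-treated astrocytes over astrocytes, 0.69 for astrocytes over neural stem cells and 0.64 for MIM-treated astrocytes over neural stem cells. Transcript length was chosen for this comparison after the values were seen, and its part in the levels of the 9 genes was not tested.

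To set cells side by side at equal depth, each cell was thinned to 1000 UMIs, which left out 973 MIM-treated astrocytes, 351 astrocytes and 1457 neural stem cells with fewer. Chd7 then had a UMI in 4.77% (4.42 to 5.13) of MIM-treated astrocytes, 0.898% (0.718 to 1.11) of astrocytes and 18.99% (18.1 to 19.9) of neural stem cells. Chd4 had a UMI in 9.14%, 7.02% and 19.7% of cells in the same order. Chd3 was seen in 0.572% of MIM-treated astrocytes, 0.856% of astrocytes and 5.87% of neural stem cells. The order of the libraries was that of the CPM for each of these 3 genes.

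For Smarca2 the shares were 5.35% of MIM-treated astrocytes, 5.14% of astrocytes and 6.37% of neural stem cells, and for Smarca4 they were 3.18%, 3.74% and 5.75%. The ARID genes and Chd8 were each seen in under 1% of cells in both astrocyte libraries and in 2.81% to 5.18% of neural stem cells. Arid1b, for one, had a UMI in 0.672% of MIM-treated astrocytes, 0.581% of astrocytes and 5.18% of neural stem cells. Without thinning neural stem cells, the shallowest library, had the lowest share for both motors: Smarca2 had a UMI in 17.0% of MIM-treated astrocytes, 22.96% of astrocytes and 10.3% of neural stem cells, and Smarca4 in 10.04%, 16.3% and 8.89%. Leaving Malat1 out before thinning gave 4.96%, 1.15% and 20.7% for Chd7 and 10.2%, 8.64% and 24.7% for Chd4. These genes are active in most cell types, so no type here served to measure the share that free RNA would give.

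**Figure D3:**
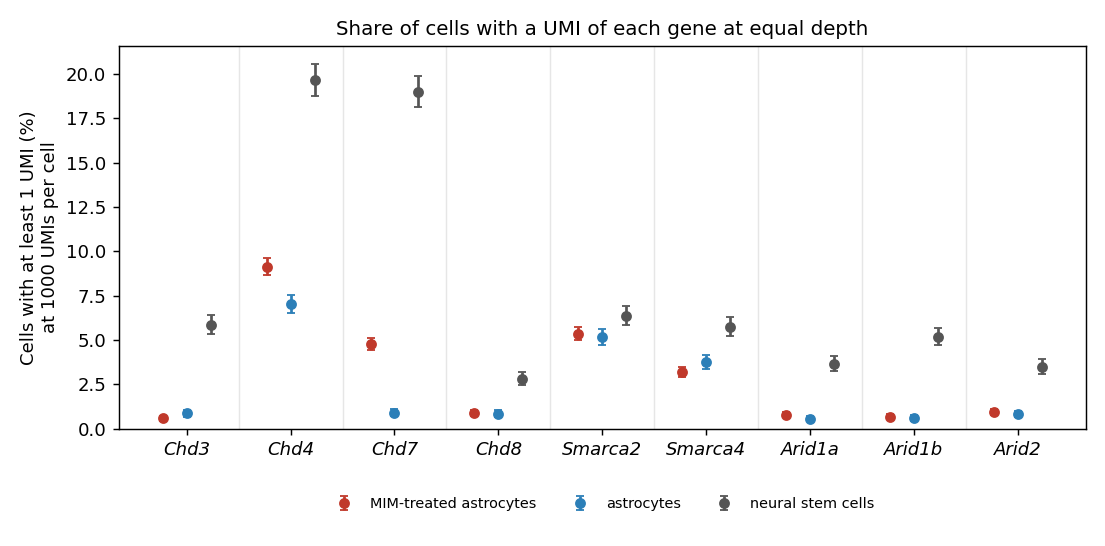
Share of cells (%) with at least 1 UMI of each gene after thinning every cell to 1000 UMIs, in MIM-treated astrocytes, astrocytes and neural stem cells, with exact 95% binomial intervals. Chd4 and Chd7 are seen in 19.7% and 18.99% of neural stem cells, and Smarca2 in 5.14% to 6.37% of cells of every library.

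Counted per cell at 1000 UMIs, at least 1 of the 9 genes was seen in 23.4% of MIM-treated astrocytes, 19.0% of astrocytes and 52.5% of neural stem cells. At least 3 of the 9 were seen in 0.272%, 0.0528% and 3.15% of cells. A cell held a mean of 0.273 UMIs of the set in MIM-treated astrocytes, 0.210 in astrocytes and 0.793 in neural stem cells. Exactly 2 of the 9 were seen in 2.36% of MIM-treated astrocytes, 1.37% of astrocytes and 12.5% of neural stem cells. At this depth most cells show at most 1 of these genes, so the set was followed in sums of cells and not cell by cell.

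Within the MIM-treated library most of the 9 genes were uneven over cells of different depth. Chd7 stood at 118 CPM (107.7 to 129.1) in the 2641 cells with 1000 to 2000 UMIs, 41.1 CPM in the 6298 cells with more and up to 4000, 18.8 CPM in the 4803 cells above that and up to 8000, and 22.1 CPM in the 249 deepest cells. In neural stem cells the same depths gave 229.5, 180.8, 178.0 and 146.4 CPM. Oligodendrocyte lineage markers in the MIM-treated cells moved with Chd7, summing to 1339 CPM in the shallowest and 332 CPM in the deepest of these classes, and summed G2 and M phase genes moved the other way, at 933 and 4013 CPM. Their part in the levels of Chd7 was not tested. The 973 MIM-treated cells below 1000 UMIs, with 46.4 CPM of Chd7 (31.9 to 65.1), did not continue the trend. Most of the set was likewise lower in the deepest than in the shallowest of these classes. In the shallowest and the deepest class of MIM-treated cells Chd3 stood at 15.3 and 2.92 CPM, Arid2 at 14.5 and 5.84 CPM, Chd8 at 12.6 and 5.42 CPM, Arid1a at 12.1 and 4.59 CPM, and all 9 together at 409 and 214 CPM. Smarca2 was the exception, at 59.4 and 60.1 CPM. MIM-treated cells below 1000 UMIs held 271 CPM of the 9 genes together. The set was also lower in the deepest than in the shallowest of these classes in the other libraries. It stood at 285 and 187 CPM in astrocytes and at 810 and 641 CPM in neural stem cells.

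The comparison of Chd7 between libraries therefore depends on which cells are set side by side. In cells with 1000 to 2000 UMIs, MIM-treated astrocytes were 7.08-fold higher (3.56 to 16.49) than astrocytes, the second from 8 UMIs, and 1.95-fold lower (1.76 to 2.15) than neural stem cells, which is under the size used for a call. Over all cells the second ratio was 6.15-fold. Chd3 in these cells was 4.72-fold lower (3.63 to 6.24) in MIM-treated astrocytes than in the stem cells, and Arid1b 5.23-fold lower (3.81 to 7.36), in place of 16.2-fold and 9.37-fold over all cells. Astrocytes of that depth were 13.8-fold lower (6.98 to 31.9) in Chd7 and 4.95-fold lower (2.39 to 12.4) in Chd3 than the stem cells, from 8 and 7 UMIs. The 9 genes together were 1.98-fold lower (1.88 to 2.09) in MIM-treated astrocytes and 2.84-fold lower (2.40 to 3.39) in astrocytes than in the stem cells of that depth.

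In each library the level of the set was also higher in cells with a larger Malat1 share. Per 1000000 UMIs other than Malat1, the 9 genes together stood at 263 in MIM-treated cells with under 10% Malat1 and 637 in those with 30% or more. The same classes gave 213 and 561 in astrocytes and 709 and 1382 in neural stem cells. At 10 to 20% Malat1, where each library had over 1000 cells, the set stood at 279 in MIM-treated astrocytes (5285 cells), 240 in astrocytes (6793 cells) and 866 in neural stem cells (1752 cells). The order of the libraries for the 9 genes together was the same in these cells of like Malat1 share. Their depth still differed, with medians of 3504, 5261 and 1319 UMIs in that order.

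Chd7 stood at 30.6 and 119.8 on this scale in MIM-treated cells with the least and the most Malat1, 7.91 and 69.0 in astrocytes, and 173 and 411 in neural stem cells. Chd3 in neural stem cells stood at 38.4 with under 10% Malat1 and 146 with 30% or more. Smarca4 stood at 56.8 and 98.8 in the same classes of neural stem cells. The classes with 30% or more Malat1 held 172 MIM-treated astrocytes and 190 astrocytes, with medians of 1357 and 1838 UMIs, so depth moved with them. The part of Malat1 and depth in the levels was not tested.

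**Figure D4:**
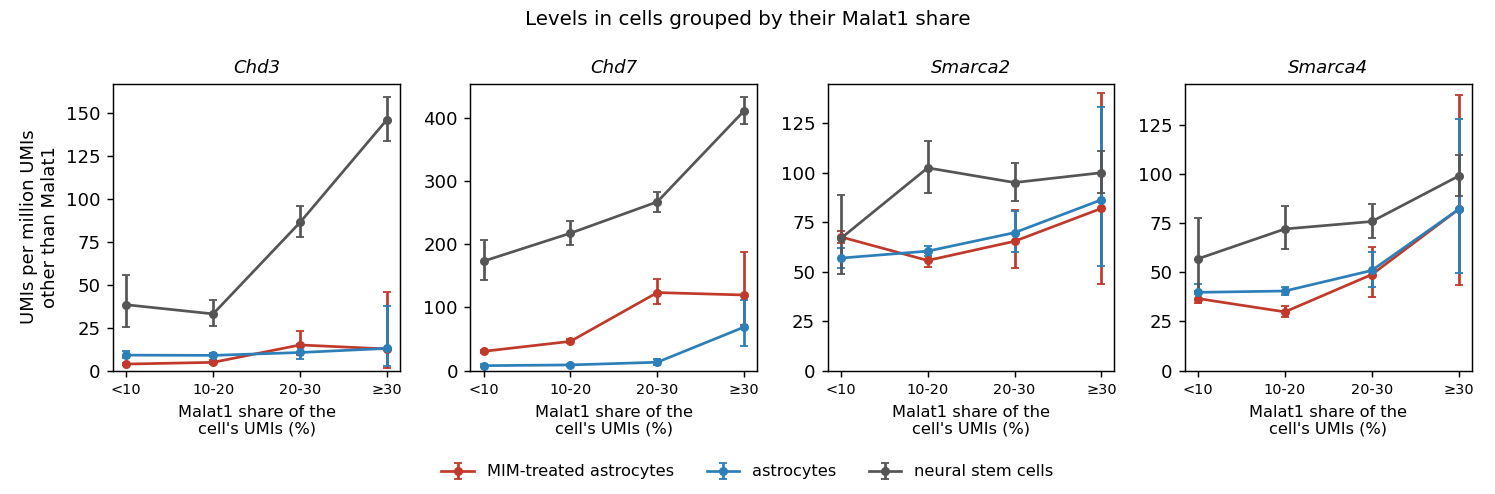
Levels of Chd3, Chd7, Smarca2 and Smarca4 per 1000000 UMIs other than Malat1 in cells grouped by Malat1 share (x axis, %), with exact 95% counting intervals, for the 3 libraries. In neural stem cells Chd7 stands at 173 with under 10% Malat1 and 411 with 30% or more, and at 10 to 20% Malat1 Chd7 stands at 46.3, 9.08 and 218 in MIM-treated astrocytes, astrocytes and neural stem cells.

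Chd7 and Chd3 also differed between cells of a library that carry or lack transcripts of other programmes. Cells were classed by the number of UMIs of a marker list after thinning to 1000 UMIs (0, 1, or 2 and more), which are ranges of a count and not cell types. In MIM-treated astrocytes, Chd7 stood at 83.6 CPM (72.8 to 95.4) in the 2597 cells with 2 or more oligodendrocyte lineage UMIs, most of them Olig1, and at 33.6 CPM in cells with none. In neural stem cells it stood at 290 CPM and 178 CPM in the same classes. With astrocyte markers the order was the other way: 25.6 CPM with 2 or more UMIs and 65.9 CPM with none in MIM-treated cells, and 98.6 and 269.5 CPM in neural stem cells.

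Chd3 had the same order in neural stem cells, at 108 CPM with 2 or more oligodendrocyte lineage UMIs and 48.0 CPM with none, and at 24.9 CPM with 2 or more astrocyte UMIs and 91.8 CPM with none. Its levels in MIM-treated cells were 10.4 and 3.37 CPM by the first list. In neural stem cells, Malat1 took 27.5% of UMIs both in cells with 2 or more and in cells with no oligodendrocyte lineage UMI, at medians of 1454.5 and 1471 UMIs. In MIM-treated cells the same classes had 10.7% and 9.40% Malat1 and medians of 2396 and 3775 UMIs.

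Cells with several transcripts of cell division carried less Chd7 in the MIM-treated and the stem cell library, and less Chd3 in neural stem cells. Cells with 2 or more UMIs of G2 and M phase genes made up 28.0% of MIM-treated astrocytes and 7.32% of neural stem cells, and 3 astrocytes. Chd7 stood at 26.3 CPM in such MIM-treated cells and 58.4 CPM in those with none, and at 115.5 and 229 CPM in neural stem cells. Chd3 stood at 24.9 and 72.1 CPM in the same classes of neural stem cells. Malat1 was lower in these cells too, at 6.10% against 11.7% of UMIs in MIM-treated cells and 17.8% against 28.7% in neural stem cells, and its part was not tested. There were 1638 MIM-treated astrocytes, 150 astrocytes and 467 neural stem cells with exactly 1 such UMI. Among cells with none, Chd7 stood at 58.4 CPM in 8439 MIM-treated astrocytes, 9.02 CPM in 9314 astrocytes and 229 CPM in 6658 neural stem cells. The order of the 3 libraries was the same in cells with no such UMI. Within those cells Chd7 still stood at 88.0 CPM with 2 or more oligodendrocyte lineage UMIs and 39.3 CPM with none in the MIM-treated library.

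**Figure D5:**
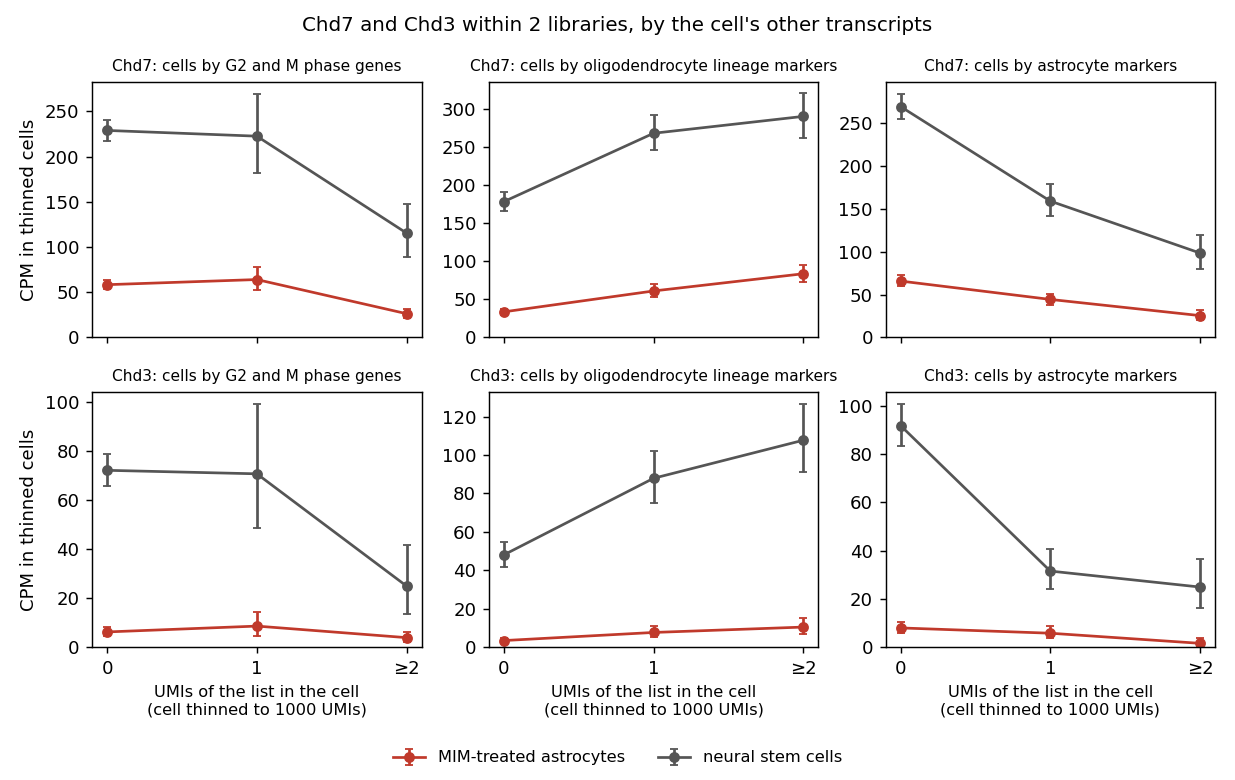
Chd7 (upper row) and Chd3 (lower row) in CPM, in cells of the MIM-treated and the neural stem cell library grouped by UMIs of 3 gene lists at 1000 UMIs per cell, with exact 95% counting intervals. Chd7 in MIM-treated cells lies at 83.6 CPM with 2 or more oligodendrocyte lineage UMIs and 33.6 CPM with none.

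Other subunits and relatives of these remodellers were counted by the same rule, beside the shares of all genes at the floor. In MIM-treated astrocytes over astrocytes, 11.2% of all genes were higher and 19.1% lower. In astrocytes over neural stem cells these were 24.2% and 25.1%, and in MIM-treated astrocytes over neural stem cells 12.5% and 22.6%. With TMM scaling the last pair was 24.5% and 12.3%. Each list holds few genes, so nothing is read from its counts. Of 6 other CHD helicases, 4 reached the floor in each comparison. None was called between MIM-treated astrocytes and astrocytes, and 2 were lower in astrocytes and 2 in MIM-treated astrocytes than in the stem cells. Chd6 had log2 ratios of 0.49 for MIM-treated astrocytes over astrocytes, −1.63 for astrocytes over neural stem cells and −1.14 for MIM-treated astrocytes over neural stem cells. With TMM scaling 0 were lower in MIM-treated astrocytes than in the stem cells. Chd1, which recognises methylated histone H3, stood nearer at −0.07, −0.46 and −0.53 in the same order.

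Among 12 NuRD partners, 1 was higher and 1 lower in MIM-treated astrocytes than in astrocytes. Cdk2ap1, a small NuRD-associated protein, was higher at a log2 ratio of 1.48, and Mbd2, which binds methylated DNA, was lower at −1.34. In astrocytes over neural stem cells 6 of the 11 at the floor were lower and 1 was higher at a median of −1.29. Gatad2a, a scaffold of the complex, was at −2.13 and Mbd2 at 1.48. In MIM-treated astrocytes over neural stem cells 5 of 11 were lower and 0 higher at a median of −0.58, but with TMM scaling 2 were lower and 2 higher.

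Among 23 other SWI/SNF subunits, 3 of 17 at the floor were higher in MIM-treated astrocytes than in astrocytes and 0 lower. They were Dpf3, a histone-reading subunit of neuronal and muscle BAF complexes, Smarcd1, a core subunit, and Brd9, a bromodomain subunit of the noncanonical BAF complex. Smarcd1 stood at 101.05 CPM in MIM-treated astrocytes, 22.7 CPM in astrocytes and 336 CPM in neural stem cells, the same order as Chd7. Dpf3 stood at 44.4, 4.37 and 17.4 CPM, and was the one SWI/SNF subunit higher in MIM-treated astrocytes than in the stem cells.

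Of 18 such subunits at the floor in astrocytes over neural stem cells, 7 were lower and 0 higher at a median of −0.72, and in MIM-treated astrocytes over neural stem cells 6 were lower and 1 higher at a median of −0.82. Without Malat1 in the totals the last count was 10 lower, beside 33.9% of all genes, and with TMM scaling 3 lower, beside 12.3%. Bcl7a, an accessory subunit, stood at 10.1 CPM in MIM-treated astrocytes, 5.97 CPM in astrocytes and 80.4 CPM in neural stem cells. Brd9, with Chd7 and Smarcd1, was higher in MIM-treated astrocytes than in astrocytes and lower in both than in the stem cells, at 61.3, 22.55 and 130.3 CPM.

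Of 16 ISWI and INO80 family remodellers, 1 was higher and 0 lower in MIM-treated astrocytes than in astrocytes, among 12 at the floor. That gene was Hells, a remodeller of heterochromatin that is high in dividing cells, at 15.85 CPM in MIM-treated astrocytes, 0.77 CPM in astrocytes and 6.94 CPM in neural stem cells. In astrocytes over neural stem cells 7 of 13 were lower and 0 higher, and in MIM-treated astrocytes over neural stem cells 7 of 14 were lower and 1 higher. Bptf, the histone-reading subunit of NURF, had log2 ratios of 0.41, −2.38 and −1.97 in the order of comparisons above. With TMM scaling 3 in place of 7 were lower in MIM-treated astrocytes than in the stem cells.

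Of 7 nuclear noncoding RNAs listed, 3 reached the floor in MIM-treated astrocytes over astrocytes, with 0 higher and 1 lower. In astrocytes over neural stem cells 4 did, with 1 higher and 1 lower, and in MIM-treated astrocytes over neural stem cells 3 did, with 0 higher and 3 lower at a median of −1.84. Kcnq1ot1, an antisense RNA of an imprinted region, stood at 11.4 CPM in MIM-treated astrocytes, 15.97 CPM in astrocytes and 69.8 CPM in neural stem cells, and was lower in both astrocyte libraries. Neat1, the paraspeckle scaffold, stood at 1.08, 41.15 and 2.79 CPM in the same order.

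Genes were ranked by how near their profile over the 3 libraries lay to that of Chd3, by the distance between log2 levels centred on each gene, among 3186 candidates at 50 CPM or more in a library. The nearest to Chd3 were Eef2, Igf1r, Zfp36l1, Gigyf1 and Foxp1, at distances of 0.393 to 0.660. The nearest to the median profile of the 9 genes were Ist1, Sbno1, Rgma, Mapkapk2 and Bag6, at 0.090 to 0.108. A profile over 3 libraries has few ways to differ, so many genes lie near any one of them.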

How the data were processed

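The deposited values are UMI counts per gene and cell, which, per the labels' protocols, the authors made with Cell Ranger 3.0.2 on the 10x mm10 reference. The submitters' processing notes also name Seurat 3.1.1, with no role given. The lowest total of a deposited barcode was 500 UMIs. The 9 genes, the gene lists and the alternatives were chosen with earlier results of these data known.

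Cells were kept from 200 detected genes up and with 20% mitochondrial UMIs or less, which removed 13 MIM-treated astrocytes, 7 astrocytes and 12 neural stem cells. The kept UMIs were 50906724, 50594420 and 14689259 in that order. No doublet caller was run, and an alternative left out the 8% of cells with the most UMIs. UMIs were summed per library, and the log2 ratio used a pseudocount of 1 CPM. With 1 library per group no test was made. Intervals are exact Poisson, exact conditional binomial for folds and exact binomial for shares, at 95%, and cover counting error only. Thinning drew UMIs without replacement (seed 1). The sums and calls were tested on simulated data. All 9 genes were named, and from the lists those with the largest and smallest log2 ratios; Chd1, Chd6, Brd9, Smarcd1, Hells, Cdk2ap1, Mbd2, Bptf, Gatad2a, Bcl7a, Neat1 and Kcnq1ot1, where not among these, were chosen after their values were seen. Positions are from GENCODE vM21 by gene ID, and promoters from RefSeq by symbol. TMM factors came from edgeR 4.0.16 (R 4.3.3), and all else from Python 3.11.15 with scipy 1.17.1, numpy 2.4.6, pandas 2.3.3 and matplotlib 3.10.9.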

Additional observations from a re-analysis of the deposited data

How the results depend on the processing

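Of the settings tried, 2 were chosen after seeing the data, the ones that leave out the deepest cells and the shared barcodes. Raising the level floor to 50 CPM in either library left 0 of the 9 genes higher in MIM-treated astrocytes than in astrocytes, beside 14.7% of all genes. It left 4 lower in astrocytes than in the stem cells, beside 22.9% of all genes. For MIM-treated astrocytes against the stem cells 4 were lower, beside 16.2% of all genes. Fewer genes then qualify, with 2, 6 and 6 of the 9 at that floor in these comparisons. The other alternatives kept each count of the 9 genes within 1.5 times the reported one. Against the stem cells, 5 to 8 were lower in MIM-treated astrocytes, while the share of all genes lower ran from 9.57% to 33.9%. In astrocytes 6 or 7 were lower against the stem cells, while that share ran from 14.9% to 31.4%. In cells with 1000 to 2000 UMIs the calls of Chd4 and Chd7 in MIM-treated astrocytes and of Arid2 in astrocytes ended, and with a pseudocount of 10 CPM that of Chd8 in astrocytes ended at −0.99. The cause was not tested. With TMM scaling, Smarca2 in MIM-treated astrocytes over neural stem cells was 0.10 in place of −0.29. Over the alternatives the log2 ratio of Chd7 ran from 1.33 to 2.75 for MIM-treated astrocytes over astrocytes, from −4.84 to −3.65 for astrocytes over neural stem cells and from −2.90 to −0.95 for MIM-treated astrocytes over neural stem cells. Between MIM-treated astrocytes and astrocytes Chd3 ran from −0.86 to 0.06 and Arid1a from −0.25 to 0.73. Of all log2 ratios under the alternatives, 150 shifted by less than the width of their counting interval on that side and 93 by more. The shares of cells rest on thinning, and at another depth 26 of 27 lay outside their counting interval. No paired analysis was possible because each group is 1 library. Depth limits the ARID genes, Chd3 and Chd8 most, with at most 445 UMIs each in either astrocyte library. It also limits Chd7 in astrocytes, with 411 UMIs there.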
